A study of Mus musculus with 18 samples.

Results

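The genes described here are 33 mouse genes of glycolysis, the hypoxia response and the TXNIP group of alpha-arrestins, followed by RNA-seq in macrophages grown from bone marrow. They were chosen by gene symbol, with earlier results of these data known. Each symbol was matched to the Ensembl gene IDs of the deposited count table. The 33 symbols took 34 of its 56953 gene IDs, because Aldoa stands for a second ID with 0 to 8 counts per library, which was left aside. Of the 33 genes, 32 had enough counts to be tested. Egln3, with 1 to 14 counts per library, did not.

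The cells were T169A macrophages, from knock-in mice whose RIPK1 carries alanine in place of 1 threonine (T169A), and B6 macrophages, from C57BL/6J mice. RIPK1 acts below TNF and Toll-like receptors, where it helps to decide between survival, inflammatory gene expression and cell death. Bone marrow was cultured for 7 days with 20% serum and with 30% L929-conditioned medium, which supplies M-CSF. Each genotype had 3 groups of 3 libraries, which were LPS/5z7 for 2 h, LPS for 2 h and unstimulated cells. LPS is the bacterial ligand of TLR4. The labels do not spell out 5z7, which commonly stands for (5Z)-7-oxozeaenol, known to inhibit TAK1, and they give no dose of either agent. Cells given 5z7 without LPS were not analysed here. Separate mice are not stated for the libraries of a group, so p-values measure the spread between these libraries, which may be technical.

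Glycolysis turns glucose into pyruvate in the cytosol, and macrophages that meet LPS are known to raise their glucose uptake and lactate output. HIF-1, a transcription factor made of HIF1A and ARNT, raises many glycolytic genes when oxygen is low, and prolyl hydroxylases of the EGLN family mark HIF1A for destruction when oxygen is present. TXNIP and ARRDC4 are alpha-arrestins that restrain glucose uptake, and their genes are known targets of the glucose-sensing factors MondoA and ChREBP.

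Promoter sequences of 5 genes are shown as examples. These genes changed past 2-fold with LPS in both genotypes. Their promoters hold motifs by which HIF-1 (core ACGTG) and MondoA or ChREBP (paired or single E-box-like elements) are known to bind. ACGTG also stood in windows of Hif1a, which rose past 2-fold, and of Vegfa, Ankrd37 and Arrdc3, which fell past 2-fold. It was absent from the windows of Pfkp, Adm, Pfkfb4 and Txnip, which changed past 2-fold too. Aldoa, Gapdh, Pgam1 and Ldha, which changed little, held it. Apart from Txnip, the windows of these genes are not shown. A link between the motif and the change with LPS was not tested. The windows run from 250 bases before to 50 bases after the RefSeq gene start on GRCm38.p6 and are written 5′ to 3′ on the gene's strand. Capitals mark ACGTG on either strand in Slc2a1, Hk2 and Pfkfb3, the pattern of 2 CACGNG elements 5 bases apart in Txnip, and CACGTG in Arrdc4. The capitals of Pfkfb3 and Arrdc4 are the same letters, CACGTG, which cannot tell a HIF-1 site from a MondoA or ChREBP site.
Slc2a1, chr4:119108495-119108794, plus strand: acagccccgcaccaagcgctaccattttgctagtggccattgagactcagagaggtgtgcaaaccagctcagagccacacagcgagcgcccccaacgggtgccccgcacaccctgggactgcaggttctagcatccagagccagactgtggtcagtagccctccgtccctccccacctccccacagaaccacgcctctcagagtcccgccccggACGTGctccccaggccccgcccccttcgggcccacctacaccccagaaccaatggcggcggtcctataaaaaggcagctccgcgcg
Hk2, chr6:82774405-82774704, minus strand: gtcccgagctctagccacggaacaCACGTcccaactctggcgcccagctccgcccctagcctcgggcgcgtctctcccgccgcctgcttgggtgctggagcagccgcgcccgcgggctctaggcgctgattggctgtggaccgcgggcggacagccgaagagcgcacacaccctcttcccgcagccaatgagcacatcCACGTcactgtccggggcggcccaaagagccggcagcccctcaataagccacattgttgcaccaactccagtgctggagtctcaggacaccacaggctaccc
Pfkfb3, chr2:11502041-11502340, minus strand: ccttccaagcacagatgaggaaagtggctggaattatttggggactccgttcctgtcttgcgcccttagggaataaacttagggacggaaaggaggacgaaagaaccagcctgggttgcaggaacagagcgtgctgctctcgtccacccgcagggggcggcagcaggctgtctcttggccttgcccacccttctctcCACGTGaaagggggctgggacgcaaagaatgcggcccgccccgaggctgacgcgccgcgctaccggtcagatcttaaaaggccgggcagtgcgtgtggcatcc
Txnip, chr3:96557707-96558006, plus strand: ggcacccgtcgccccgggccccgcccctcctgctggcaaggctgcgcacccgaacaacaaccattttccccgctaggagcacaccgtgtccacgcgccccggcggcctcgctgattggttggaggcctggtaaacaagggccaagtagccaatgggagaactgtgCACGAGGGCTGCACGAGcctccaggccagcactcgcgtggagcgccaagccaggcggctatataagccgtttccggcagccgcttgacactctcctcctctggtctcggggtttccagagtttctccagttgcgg
Arrdc4, chr7:68749189-68749488, minus strand: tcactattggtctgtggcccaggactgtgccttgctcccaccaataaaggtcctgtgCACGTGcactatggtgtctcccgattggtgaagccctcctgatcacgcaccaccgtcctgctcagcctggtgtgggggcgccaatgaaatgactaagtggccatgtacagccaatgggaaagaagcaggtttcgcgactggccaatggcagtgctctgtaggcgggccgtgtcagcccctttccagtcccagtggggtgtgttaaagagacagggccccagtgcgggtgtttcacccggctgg

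In Slc2a1 the ACGTG core began 36 bases before the start, and Hk2 held 2 copies, both read on the opposite strand. In Pfkfb3 the 6 capitals are CACGTG, which holds ACGTG on both strands and was counted 2 times. The Txnip motif began 85 bases before the start and the Arrdc4 motif 193 bases before it. Promoter windows were found for 32 of the 33 genes, all except Bnip3l. ACGTG stood in at least 1 window of 23 of these 32 genes, or 71.9%, against 21.8% of all 27025 genes with a window. GCGTG, the other common HIF core, was likewise present in 23 of 32 genes, or 71.9%, against 35.2% of all genes. CACGTG, which contains ACGTG, stood in 6 of 32 genes, or 18.8%, against 8.09% of all genes. TGANTCA, an AP-1 motif, stood in 1 of 32 genes, Aldoa, or 3.12%, against 8.97% of all genes. A gene with more windows has more places for a match. By window, the shares in these genes were 54.2% for ACGTG, 62.5% for GCGTG, 12.5% for CACGTG and 2.08% for TGANTCA. Over all windows they were 19.6%, 32.4%, 7.15% and 7.81%. The pattern of 2 CACGNG elements 5 bases apart, chosen after the sequences were seen, stood in Txnip and in 16 of all 32851 windows, or 0.0487%. Motifs were searched on both strands. The 48 windows of these genes had a median GC content of 62.8%, against 52.7% for all windows. Many of the genes were chosen as HIF targets, and a match is a stretch of letters, not a shown binding site.

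Library totals ran from 14645076 to 30425934 counts, at which 3 counts equal 0.0886 to 0.233 CPM, the count scaled to library size with TMM factors. In B6, unstimulated library 7 stood apart, with a chi-square per degree of freedom of 81.3 and 101 against libraries 1 and 4, and of 5.92 between those 2 (a value of 1 is counting error alone). By the same measure T169A LPS library 11 gave 27.6 and 51.8, T169A LPS/5z7 library 12 gave 20.7 and 20.3, B6 LPS library 8 gave 34.7 and 22.6 and B6 LPS/5z7 library 9 gave 17.8 and 11.7, while the other pairs of those groups gave 7.55, 2.89, 5.86 and 5.17. Libraries are named by their group and running number, and values within a group follow that number. Ripk1 averaged 95 ± 3.88 CPM in T169A and 89.7 ± 13.5 CPM in B6 unstimulated libraries (SD, n = 3 each), and gene counts do not show the T169A change itself. All 7 macrophage markers, among them Lyz2, Csf1r and Adgre1, lay above 3 counts in every library, with a sum of 31100 to 41300 CPM. Neutrophil markers, 3 of 6 above 3 counts in every library, summed to 26.4 to 42.1 CPM in T169A LPS/5z7, 29.2 to 47.4 in T169A LPS and 19.2 to 27.9 in T169A unstimulated libraries, and to 19.1 to 28.4, 29.3 to 36.5 and 14.6 to 24.5 CPM in the same treatments of B6. Dendritic cell markers summed to 2.42 to 3.74 CPM in T169A LPS/5z7, 1.68 to 2.43 in T169A LPS and 0.163 to 0.275 in T169A unstimulated libraries, and to 1.99 to 3.39, 2.56 to 2.68 and 0.325 to 0.43 CPM in the same treatments of B6. Of 4 T cell markers 1 lay above 3 counts in every library and Cd3e was at 0 in all 18, with sums of 2.55 to 3.96 CPM in T169A and 4.12 to 5.67 CPM in B6. Of 5 fibroblast or stroma markers 3 lay above 3 counts in every library, with sums of 4.83 to 12.2 CPM in T169A and 3.04 to 6.9 CPM in B6. Cpa3 and 5 of 6 erythroid genes were at 0 in all 18 libraries. The part of these cells in the results below was not tested, and in such bulk samples fewer cells of a type and less RNA per cell cannot be told apart.

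Within 2 h of LPS, 4 genes of glucose entry and the fructose phosphate steps (Slc2a1, Hk2, Pfkp and Pfkfb3) rose several-fold, the genes from aldolase to lactate dehydrogenase changed little, and Txnip and Arrdc3 fell. Between LPS and unstimulated cells, 12 genes were higher and 9 lower in T169A and 11 higher and 8 lower in B6, at an adjusted p under 0.05 in edgeR's quasi-likelihood test (Benjamini-Hochberg over 13068 genes). As shares of the 32 genes these are 37.5% and 28.1% in T169A and 34.4% and 25% in B6. Over all genes tested, 30.3% were higher and 31.5% lower in T169A, and 29.6% were higher and 33.5% lower in B6, so the shares of called genes were near the background. All 11 and 8 genes called in B6 were called in T169A too, where Pkm was also higher and Pdk1 also lower. The median log2 fold change of the 32 genes was 0.14 in T169A and 0.02 in B6, against −0.03 and −0.07 for all genes. Past 2-fold in both genotypes, 7 genes rose (Slc2a1, Hk2, Pfkp, Pfkfb3, Hif1a, Adm and Arrdc4). Another 5 fell past 2-fold in both (Pfkfb4, Vegfa, Ankrd37, Txnip and Arrdc3). Of all genes, 14.2% rose and 15.3% fell past 2-fold in T169A, and 14.5% and 15.9% in B6. Those shares were taken in each genotype alone, which is a looser rule.

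With 5z7 added to LPS, 3 genes were higher and 6 lower in T169A, and 4 higher and 6 lower in B6, or 9.38% and 18.8% of the 32 genes in T169A and 12.5% and 18.8% in B6. Over all genes, 6.5% were higher and 6.53% lower in T169A, and 7.03% were higher and 6.79% lower in B6. The genes were chosen with earlier results of these data known, so these shares are not an independent comparison. The 6 lower genes were the same in both genotypes, namely Slc2a1, Hk2, Pfkm, Pfkfb3, Vegfa and P4ha1. Pfkfb4, Txnip and Arrdc3 were higher in both, and Egln1 was called higher in B6. The median log2 fold change was −0.04 in T169A and −0.08 in B6, against 0.02 for all genes in both. Between LPS/5z7 and unstimulated cells, 9 genes were higher and 8 lower in T169A and 9 higher and 7 lower in B6, or 28.1% and 25% of the 32 genes in T169A and 28.1% and 21.9% in B6. Of all genes, 28.1% were higher and 27.5% lower in T169A, and 27.6% and 27.9% in B6. Comparisons with LPS share the LPS libraries, so a gene's change with LPS and its change with added 5z7 are not independent and are given below side by side.

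**Figure D1:**
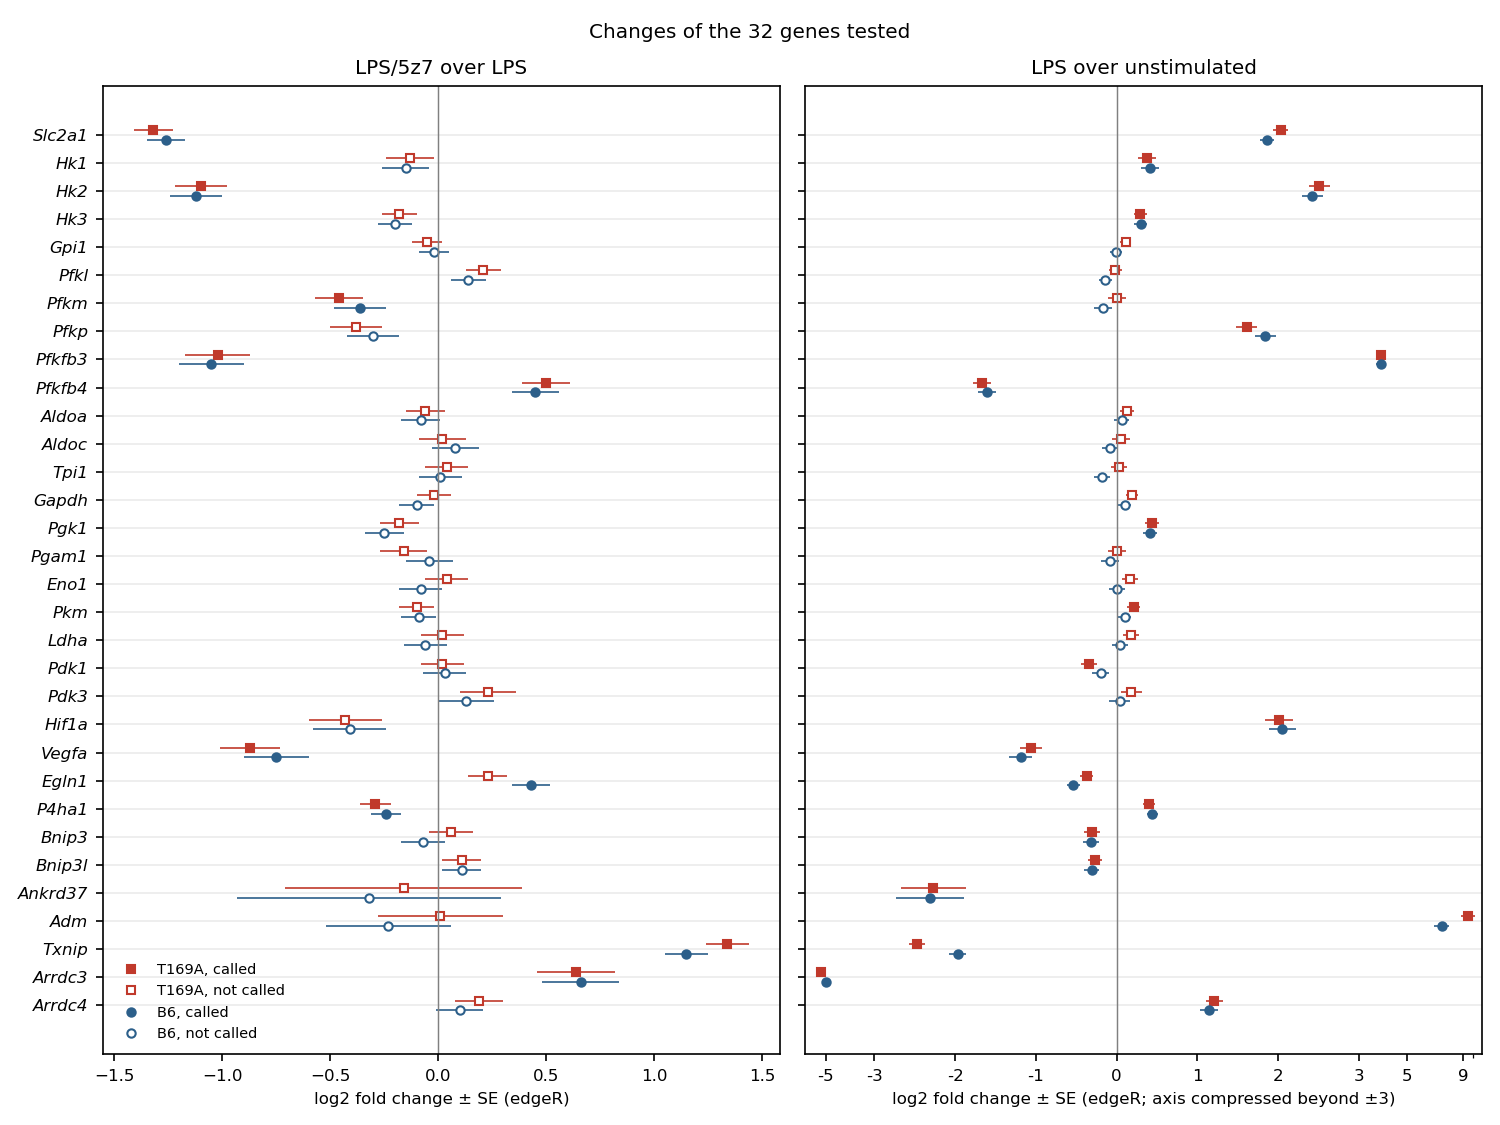
Log2 fold change ± SE (edgeR) of the 32 genes tested, one row a gene, for LPS/5z7 over LPS on the left and LPS over unstimulated on the right, with T169A as squares and B6 as circles, filled where the adjusted p was under 0.05. The right axis is linear to 3 and logarithmic beyond. Slc2a1, Hk2 and Pfkfb3 lie right of 0 with LPS and left of 0 with added 5z7, Txnip and Arrdc3 lie the other way, and Adm, at 9.52 and 7.19, rests on 1 and 6 counts in unstimulated cells.

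All 4 genes of glucose uptake and phosphorylation (Slc2a1, Hk1, Hk2 and Hk3) rose with LPS in both genotypes, and 2 of them fell with added 5z7, where 30.3% and 29.6% of all genes rose with LPS in T169A and B6 and 6.53% and 6.79% fell with added 5z7. The largest changes were in Slc2a1, which encodes the glucose transporter GLUT1, and Hk2, an inducible hexokinase that traps glucose as glucose 6-phosphate. In T169A cells, Slc2a1 had 50.8, 49.6 and 49.0 CPM with LPS/5z7, 118, 127 and 130 CPM with LPS and 33.5, 28.1 and 29.8 CPM unstimulated. Slc2a1 in B6 cells had 52.7, 59.2 and 55.8 CPM with LPS/5z7, 126, 129 and 146 CPM with LPS and 39.6, 37.6 and 33.2 CPM unstimulated. No library of one treatment overlapped another, and LPS/5z7 lay between LPS and unstimulated cells in both genotypes. Slc2a1 rose with LPS by 2.03 ± 0.09 (log2 fold change ± SE) in T169A and 1.86 ± 0.09 in B6, and fell with added 5z7 by 1.32 ± 0.09 in T169A and 1.26 ± 0.09 in B6. The falls had adjusted p of 4.19e-08 and 7.35e-08 in edgeR. Against unstimulated cells LPS/5z7 left it 0.71 ± 0.09 higher in T169A and 0.60 ± 0.09 higher in B6. That last call in B6 was lost under scaling by library size alone (0.18, adjusted p = 0.0846 in edgeR).

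Hk2 followed the same order. In T169A it had 223, 163 and 162 CPM with LPS/5z7, 461, 365 and 353 CPM with LPS and 66.4, 71.2 and 69.3 CPM unstimulated. B6 libraries held 156, 165 and 172 CPM of Hk2 with LPS/5z7, 354, 348 and 368 CPM with LPS and 71.3, 68.9 and 59.6 CPM unstimulated. Treatments did not overlap, and in T169A the first library of LPS/5z7 and of LPS, numbers 12 and 11, lay above the other 2. The rise with LPS was 2.51 ± 0.13 in T169A and 2.42 ± 0.13 in B6, and Hk2 fell with added 5z7 by 1.10 ± 0.12 in T169A and 1.12 ± 0.12 in B6. The adjusted p of these falls were 9.18e-06 and 8.25e-06 in edgeR. Compared with unstimulated cells LPS/5z7 was higher by 1.41 ± 0.12 and 1.30 ± 0.12. Hk1 averaged 99 ± 8.46, 108 ± 9.09 and 83.3 ± 0.839 CPM in T169A with LPS/5z7, LPS and no stimulus and 99.1 ± 9.87, 110 ± 10.3 and 82.6 ± 10.8 CPM in B6, and Hk3 197 ± 16.2, 223 ± 10.8 and 182 ± 4.46 CPM in T169A and 187 ± 11.9, 215 ± 6.71 and 175 ± 8.91 CPM in B6 (SD, n = 3 each). The constitutive hexokinase gene Hk1 rose by 0.38 ± 0.11 in T169A and 0.41 ± 0.11 in B6 with LPS, and Hk3, the form typical of myeloid cells, by 0.29 ± 0.08 and 0.30 ± 0.08. Neither passed edgeR's test for added 5z7, with values of −0.20 to −0.13. DESeq2 called Hk3 lower with added 5z7 in B6 (−0.23, adjusted p = 0.0237). These small rises of Hk1 and Hk3 turned negative when libraries were scaled by size alone (−0.29 to −0.18). Between LPS/5z7 and unstimulated cells Hk1 was called in B6 (0.26 ± 0.11, adjusted p = 0.0498 in edgeR), a call lost without library 3, 6 or 7 (adjusted p of 0.18, 0.171 and 0.182).

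The shares within a gene family do not depend on how libraries are scaled. They do depend on the exon lengths used, which are approximate. Per kilobase of exon, Hk2 made up 31.8% ± 2.63 of hexokinase CPM with LPS/5z7, 47.2% ± 2.62 with LPS and 16.3% ± 0.329 in unstimulated T169A cells (SD, n = 3). In B6 its share was 30.6% ± 2.38 with LPS/5z7, 45.6% ± 1.74 with LPS and 16.3% ± 0.660 unstimulated. Hk3 was the largest hexokinase unstimulated, at 69.9% in T169A and 69.5% in B6, and its share with LPS was 43.7% and 44.5%. Hk2 and Hk3 thus had shares within 4 points of each other after LPS, with ranges of 44.8% to 50% and 41.0% to 46.1% over the T169A libraries.

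**Figure D2:**
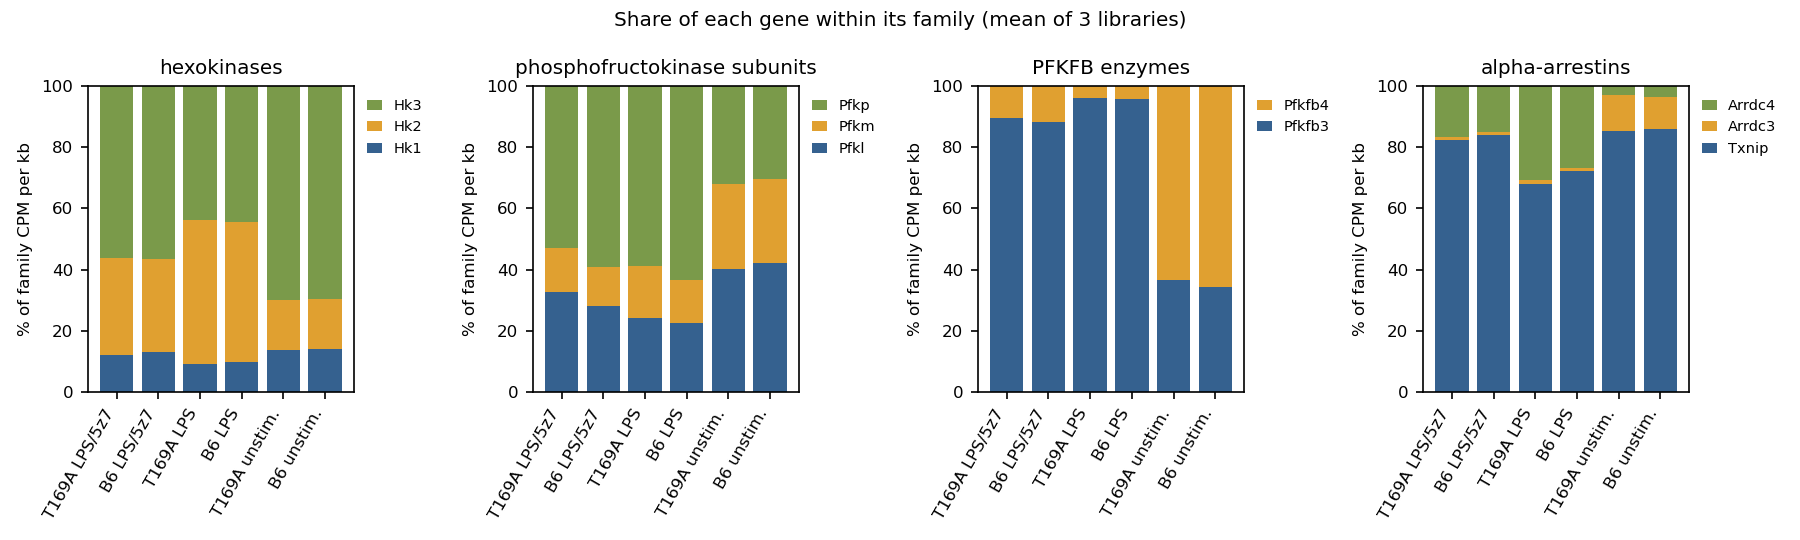
Share of each gene in the summed CPM per kilobase of its family (percent, mean of 3 libraries), for hexokinases, phosphofructokinase subunits, PFKFB enzymes and alpha-arrestins in the 6 groups. Hk2, Pfkp, Pfkfb3 and Arrdc4 have their largest shares with LPS, and Pfkfb3 goes past 95% of its pair there.

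Of 6 genes of the fructose phosphate steps, 2 rose and 1 fell with LPS and 1 rose and 2 fell with added 5z7, in each genotype. Of all genes, 30.3% rose and 31.5% fell with LPS in T169A and 29.6% and 33.5% in B6, and 6.5% rose and 6.53% fell with added 5z7 in T169A and 7.03% and 6.79% in B6. Phosphofructokinase commits sugar to glycolysis and has 3 subunit genes, of which Pfkp, the platelet type, changed most with LPS. Pfkp in T169A had 156, 137 and 130 CPM with LPS/5z7, 217, 173 and 159 CPM with LPS and 57.8, 60.5 and 61.4 CPM unstimulated. For B6 the values were 171, 172 and 166 CPM with LPS/5z7, 230, 212 and 186 CPM with LPS and 57.6, 68.0 and 50 CPM unstimulated. All LPS libraries lay above all LPS/5z7 libraries of the same genotype, and both lay above unstimulated ones. Pfkp rose with LPS by 1.61 ± 0.13 in T169A and 1.84 ± 0.13 in B6. For added 5z7 it gave −0.38 ± 0.12 (adjusted p = 0.0531) in T169A and −0.30 ± 0.12 (adjusted p = 0.119) in B6 by edgeR, which did not pass. DESeq2 gave −0.41 in T169A (adjusted p = 0.0224), and edgeR on the B6 LPS/5z7 and LPS groups alone gave −0.31 (adjusted p = 0.0238). Without T169A library 12 or 17 the value was −0.47 or −0.48 (adjusted p = 0.0395 and 0.0276).

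Pfkm, the muscle type, was low throughout. In T169A it had 10.2, 10.1 and 7.78 CPM with LPS/5z7, 13.5, 12 and 13.3 CPM with LPS and 12.4, 13 and 13.5 CPM unstimulated. B6 cells had 10.2, 8.40 and 8.44 CPM of Pfkm with LPS/5z7, 10.8, 12.8 and 11.3 CPM with LPS and 12.7, 13.4 and 13.3 CPM unstimulated. The LPS/5z7 libraries were the lowest in both genotypes, and LPS overlapped unstimulated cells. Pfkm gave 0.00 ± 0.11 in T169A and −0.17 ± 0.11 in B6 with LPS and fell with added 5z7 by 0.46 ± 0.11 (adjusted p = 0.0122) in T169A and 0.36 ± 0.12 (adjusted p = 0.0449) in B6, by edgeR. The fall was not called in T169A without library 11 or 18 (adjusted p = 0.0501 and 0.0674) or in B6 without library 5, 6, 8 or 9 (0.0593 to 0.177), nor by library size alone (−0.31 in T169A and −0.20 in B6). Pfkl, the liver type, did not pass in either comparison, with values of −0.14 to 0.21. Pfkp made up 53.1% ± 2.29, 58.9% ± 3.57 and 32% ± 1.15 of subunit CPM per kilobase in T169A with LPS/5z7, LPS and no stimulus, and 59.2% ± 1.32, 63.5% ± 3.67 and 30.4% ± 3.65 in B6. The exon lengths used were 13401 bases for Pfkp, 6675 for Pfkl and 3340 for Pfkm. By CPM alone Pfkp led in unstimulated cells too, at 59.9 in T169A and 58.5 in B6, against 37.7 and 40.3 for Pfkl.

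PFKFB enzymes make and remove fructose 2,6-bisphosphate, the strongest activator of phosphofructokinase. Pfkfb3, an isoform that favours the kinase reaction, had 320, 270 and 258 CPM in T169A with LPS/5z7, 686, 533 and 505 CPM with LPS and 44.2, 41.4 and 39.7 CPM unstimulated. In B6 the levels of Pfkfb3 were 220, 231 and 301 CPM with LPS/5z7, 507, 463 and 585 CPM with LPS and 42.5, 41.1 and 30.2 CPM unstimulated. Treatments were separate in every library, and LPS/5z7 again lay between. Pfkfb3 rose with LPS by 3.78 ± 0.17 in T169A and 3.77 ± 0.17 in B6, and fell with added 5z7 by 1.02 ± 0.15 in T169A and 1.05 ± 0.15 in B6. The adjusted p of these falls were 0.000231 and 0.000183 in edgeR. It was still 2.76 ± 0.16 and 2.72 ± 0.16 above unstimulated cells.

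Its relative Pfkfb4 moved the other way. T169A cells had 19.3, 22.1 and 21.1 CPM of Pfkfb4 with LPS/5z7, 16.1, 13.7 and 14.2 CPM with LPS and 43.9, 46.5 and 50.1 CPM unstimulated. B6 cells had 22.7, 20.7 and 19.7 CPM with LPS/5z7, 14.2, 15.4 and 16.7 CPM with LPS and 43.8, 43.1 and 53.9 CPM unstimulated. No treatments overlapped. Pfkfb4 fell with LPS by 1.67 ± 0.11 in T169A and 1.61 ± 0.11 in B6, and rose with added 5z7 by 0.50 ± 0.11 (adjusted p = 0.00471) in T169A and 0.45 ± 0.11 (adjusted p = 0.009) in B6, by edgeR. In B6 the rise with 5z7 was not called without LPS library 2 (adjusted p = 0.0685) or LPS/5z7 library 3 (0.0509). Of the CPM per kilobase of the pair, Pfkfb3 held 89.6% ± 1.59 with LPS/5z7, 96.2% ± 0.335 with LPS and 36.5% ± 2.77 unstimulated in T169A, and 88.2% ± 2.33, 95.6% ± 0.414 and 34.4% ± 6.79 in B6.

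**Figure D3:**
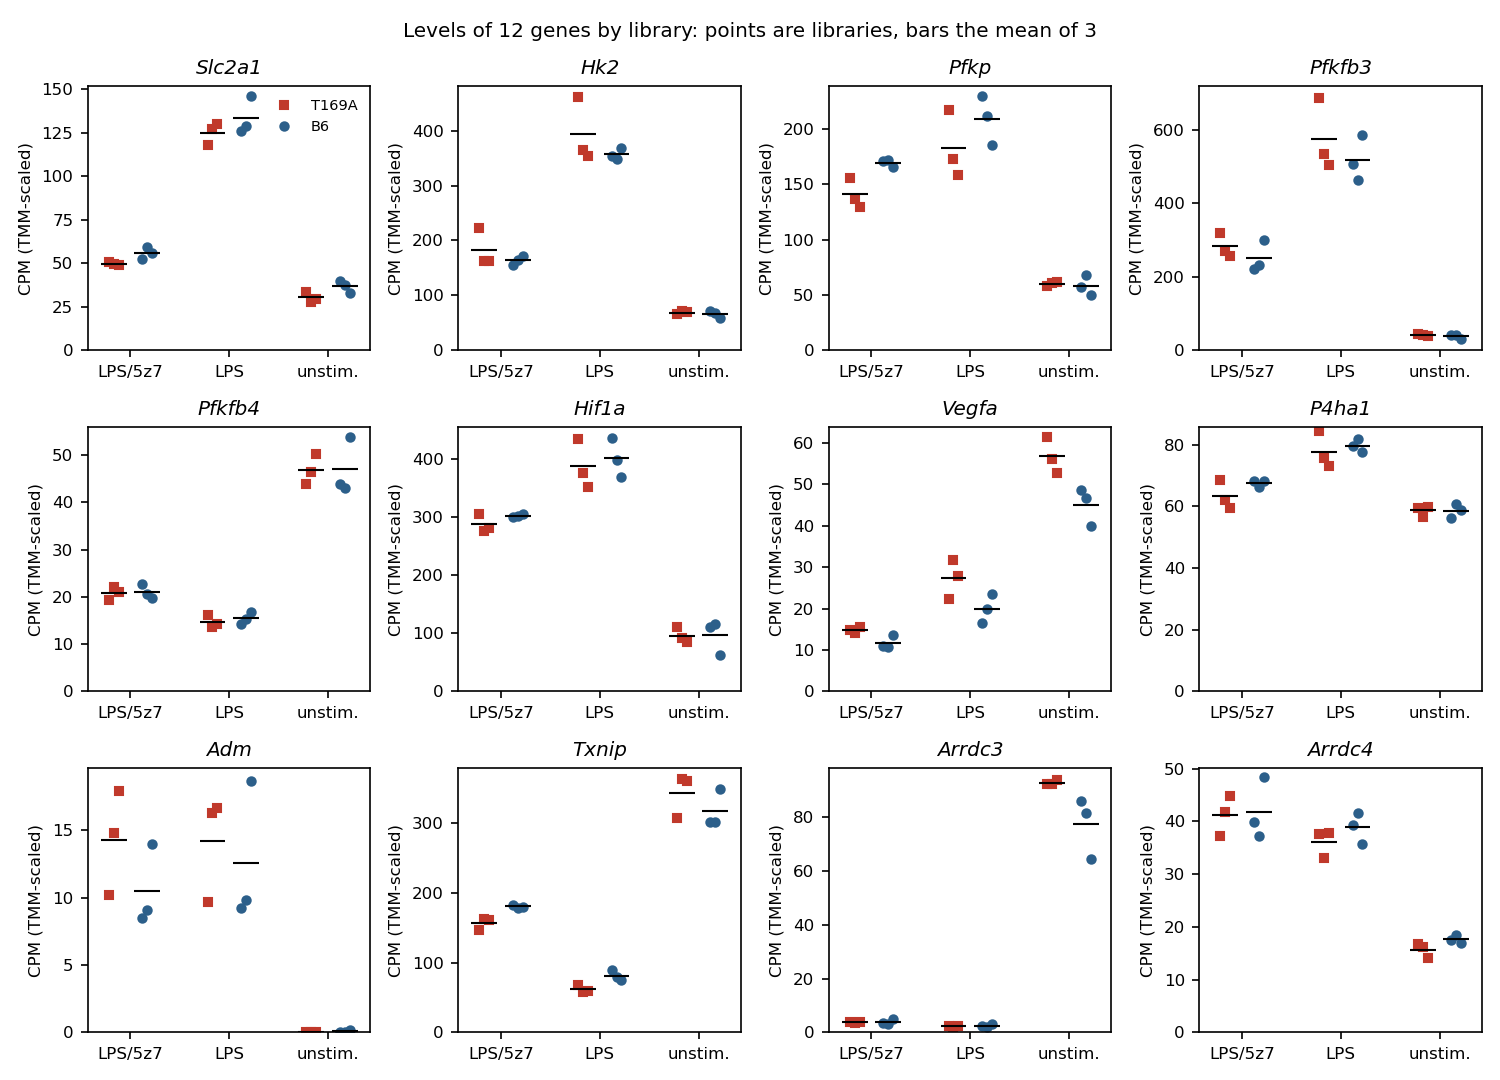
CPM after TMM scaling of 12 genes in each of the 18 libraries, for LPS/5z7, LPS and unstimulated cells, with T169A as squares, B6 as circles and bars at the mean of 3. LPS/5z7 lies between LPS and unstimulated cells for Slc2a1, Hk2, Pfkfb3, Pfkfb4 and Txnip, below both for Vegfa, and overlaps LPS for Adm and Arrdc4.

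The steps that follow were abundant and nearly level. Per kilobase, Aldoa (aldolase) was the highest of the 33 genes, at 271, 282 and 257 CPM per kilobase in T169A with LPS/5z7, LPS and no stimulus and 258, 272 and 260 in B6, followed by Pkm (pyruvate kinase) at 176, 188 and 162 in T169A and 165, 176 and 165 in B6. Without division by exon length Pkm was higher, with 878, 938 and 811 CPM in T169A against 789, 821 and 749 for Aldoa. In B6 Pkm had 825, 879 and 823 CPM against 750, 791 and 757. The order per kilobase thus rests on exon lengths of 2911 bases for Aldoa and 5001 for Pkm, which are approximate. Over Gpi1, Aldoa, Tpi1, Gapdh, Pgk1, Pgam1, Eno1, Pkm and Ldha, which carry glucose 6-phosphate to lactate apart from the phosphofructokinase step, the log2 fold changes with LPS ran from 0.00 to 0.44 in T169A and from −0.18 to 0.41 in B6. Gapdh, which makes 1,3-bisphosphoglycerate, averaged 338, 343 and 301 CPM in T169A with LPS/5z7, LPS and no stimulus and 296, 318 and 297 CPM in B6. Ldha, the lactate dehydrogenase subunit of glycolytic tissues, averaged 388, 383 and 337 CPM in T169A and 330, 345 and 337 CPM in B6, and Eno1, an enolase, 251, 245 and 220 CPM in T169A and 219, 232 and 232 CPM in B6. Tpi1 averaged 201, 196 and 192 CPM in T169A and 174, 173 and 197 CPM in B6, Gpi1 295, 306 and 285 CPM in T169A and 290, 294 and 296 CPM in B6, and Pgam1 41.6, 46.4 and 46.3 CPM in T169A and 40.4, 41.4 and 43.9 CPM in B6. None of these 6 genes passed in edgeR in any comparison between treatments. Under alternatives, Gapdh (0.21, adjusted p = 0.00851) and Gpi1 (0.13, adjusted p = 0.0276) passed in DESeq2 for LPS in T169A, and Tpi1 in edgeR without library 1 for LPS in B6 (−0.25, adjusted p = 0.0402). Ldha passed for LPS in B6 without library 7 (0.19, adjusted p = 0.0468 in edgeR). Pgk1 (phosphoglycerate kinase) passed in both genotypes, at 0.44 ± 0.09 (adjusted p = 0.00038) and 0.41 ± 0.09 (adjusted p = 0.000748), and Pkm passed in T169A at 0.21 ± 0.08 (adjusted p = 0.0251), by edgeR. Pkm gave 0.10 ± 0.08 in B6, where DESeq2 called it (0.14, adjusted p = 0.0463), and its T169A call was lost without library 11, 13, 16 or 17 (adjusted p = 0.0629, 0.111, 0.054 and 0.108). With added 5z7 none of the 9 passed, with values from −0.18 to 0.04 in T169A and −0.25 to 0.01 in B6. DESeq2 called Pgk1 lower there in B6 (−0.28, adjusted p = 0.0157). Aldoc, a second aldolase at 18.1 to 20.8 CPM on average in each group, passed in no comparison.

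Between LPS/5z7 and unstimulated cells the same 9 genes ran from −0.15 to 0.26 in T169A and from −0.18 to 0.16 in B6. Only Pgk1 passed, at 0.26 ± 0.09 in T169A (adjusted p = 0.022 in edgeR), and its call was lost without library 12, 13 or 16 (adjusted p = 0.131, 0.119 and 0.0761). In edgeR fits on those T169A groups alone Eno1 (0.19, adjusted p = 0.0223) and Ldha (0.20, adjusted p = 0.0206) also passed, and so did Tpi1 in B6 without library 1 (−0.25, adjusted p = 0.0498). The direction of many of these small values depends on the scaling, while Tpi1, Pgam1, Gpi1 and Eno1 were below 0 under both scalings for LPS in B6. TMM factors were 1.24 to 1.28 in unstimulated, 0.830 to 0.860 in LPS and 0.926 to 0.959 in LPS/5z7 libraries. With library size alone the median of all genes after LPS was −0.61 in T169A and −0.66 in B6, and the 9 genes ran from −0.58 to −0.14 in T169A and from −0.78 to −0.19 in B6, with 8 called lower in each. Several of these genes, Gapdh, Pgk1, Pgam1, Eno1, Aldoa, Tpi1 and Ldha among them, have near-identical processed copies in the genome, and how reads that match several genes were counted is not given, so their counts are uncertain.

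**Figure D4:**
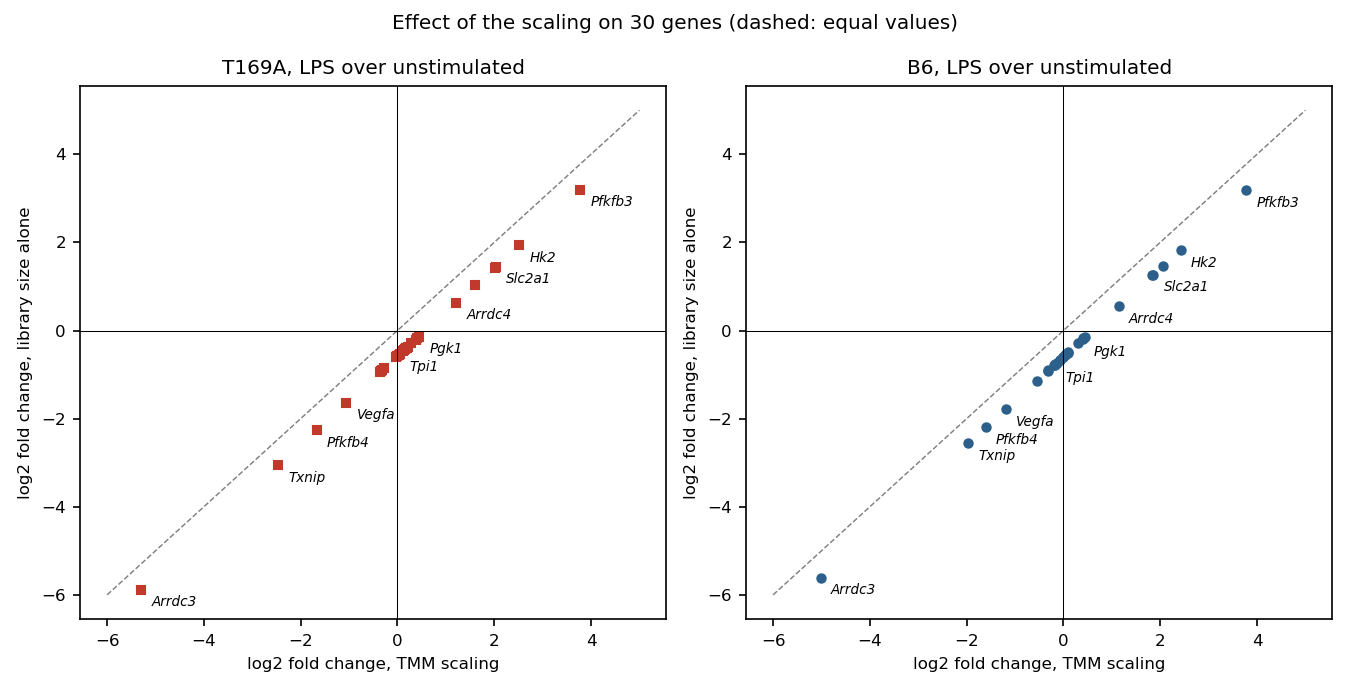
Log2 fold change of LPS over unstimulated with TMM scaling (x axis) against library size alone (y axis) for 30 genes, T169A on the left and B6 on the right, with the dashed line at equal values. The points lie on a line below the dashed one, so Pgk1, at 0.44 and 0.41 with TMM, falls below 0, while Slc2a1, Hk2 and Pfkfb3 stay above 0 and Txnip and Arrdc3 below it.

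Pyruvate dehydrogenase kinases hold pyruvate out of the mitochondrial cycle, and the genes Pdk1 and Pdk3 of this family changed by less than 0.5 on the log2 scale. Pdk1 averaged 24.6 ± 1.42, 24.3 ± 2.43 and 30.8 ± 0.959 CPM in T169A with LPS/5z7, LPS and no stimulus, and 24.8 ± 0.987, 24.1 ± 2.15 and 27.7 ± 3.34 CPM in B6 (SD, n = 3 each). It fell with LPS by 0.34 ± 0.10 in T169A (adjusted p = 0.00678), and gave −0.20 ± 0.10 in B6 (adjusted p = 0.0943), by edgeR. Without B6 library 7 the B6 value was −0.27 and passed (adjusted p = 0.0186). LPS/5z7 against unstimulated cells gave −0.32 ± 0.10 for Pdk1 in T169A, which passed, and −0.16 ± 0.10 in B6, which did not pass and did without library 7 (−0.24, adjusted p = 0.0389). Pdk3, at 5.92 to 7.87 CPM on average, passed once, at 0.41 ± 0.13 for LPS/5z7 against unstimulated T169A cells (adjusted p = 0.0102), and not without library 16 (0.30, adjusted p = 0.0733). The difference between genotypes in these effects was tested and not called, as given below.

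Of 8 tested genes of the HIF group, 3 rose and 5 fell with LPS in both genotypes, and with added 5z7 2 fell in each and 1 rose in B6. Over all genes the shares with LPS were 30.3% higher and 31.5% lower in T169A and 29.6% and 33.5% in B6, and with added 5z7 6.53% lower in T169A, 6.79% lower in B6 and 7.03% higher in B6. Hif1a RNA rose with LPS, while the other tested genes of this group went both ways. Gene counts do not show the level of HIF1A protein. Hif1a had 305, 277 and 281 CPM in T169A with LPS/5z7, 435, 377 and 352 CPM with LPS and 111, 91.9 and 85.3 CPM unstimulated. B6 cells held Hif1a at 301, 303 and 305 CPM with LPS/5z7, 437, 399 and 369 CPM with LPS and 111, 116 and 63.2 CPM unstimulated. LPS libraries were all above LPS/5z7 libraries, and the lowest unstimulated value was that of B6 library 7. Hif1a rose with LPS by 2.01 ± 0.17 in T169A and 2.05 ± 0.17 in B6, or 1.82 in B6 without library 7. Added 5z7 gave −0.43 ± 0.17 (adjusted p = 0.105) in T169A and −0.41 ± 0.17 (adjusted p = 0.122) in B6, which did not pass. In edgeR fits on those 2 groups alone the values were −0.44 (adjusted p = 0.0208) and −0.42 (adjusted p = 0.00414), both past the threshold.

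Vegfa encodes the blood vessel growth factor VEGF-A, a textbook HIF-1 target. In T169A it had 14.9, 14.2 and 15.6 CPM with LPS/5z7, 22.2, 31.7 and 27.9 CPM with LPS and 61.3, 56.2 and 52.7 CPM unstimulated. Levels of Vegfa in B6 were 10.9, 10.8 and 13.6 CPM with LPS/5z7, 16.4, 19.8 and 23.5 CPM with LPS and 48.7, 46.7 and 39.9 CPM unstimulated. LPS/5z7 was lowest and unstimulated highest, with no overlap, so Vegfa, unlike Slc2a1, Hk2 and Pfkfb3, moved down in both steps. It fell with LPS by 1.06 ± 0.14 in T169A and 1.19 ± 0.14 in B6 and fell further with added 5z7 by 0.87 ± 0.14 in T169A and 0.75 ± 0.15 in B6. The adjusted p with added 5z7 were 0.00054 and 0.00235 in edgeR. LPS/5z7 against unstimulated cells gave −1.93 ± 0.14 in T169A and −1.94 ± 0.15 in B6.

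P4ha1, a collagen prolyl hydroxylase subunit, had 68.5, 61.9 and 59.6 CPM in T169A with LPS/5z7, 84.3, 75.5 and 73.1 CPM with LPS and 59.6, 56.5 and 59.9 CPM unstimulated. In B6 there were 68.1, 66.4 and 68.2 CPM of P4ha1 with LPS/5z7, 79.7, 81.8 and 77.5 CPM with LPS and 56.3, 60.8 and 58.8 CPM unstimulated. LPS libraries were highest in each genotype, and LPS/5z7 overlapped unstimulated cells in T169A. P4ha1 rose with LPS by 0.40 ± 0.07 and 0.44 ± 0.07, and fell with added 5z7 by 0.29 ± 0.07 in T169A (adjusted p = 0.0145) and 0.24 ± 0.07 in B6 (adjusted p = 0.0423), by edgeR. That fall was not called in T169A without library 11, 15 or 18 (adjusted p = 0.0801, 0.0663 and 0.0812), in B6 without library 2, 3, 5, 6 or 9 (0.0745 to 0.113), or in either with library size alone (−0.14 and −0.07). Its rise in LPS/5z7 against unstimulated B6 cells, 0.20 ± 0.07, was lost without library 1, 3, 6 or 9 (adjusted p of 0.0674 to 0.0973).

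Egln1 encodes PHD2, the main oxygen-sensing hydroxylase of HIF1A. In T169A it had 21.4, 24.0 and 22.0 CPM with LPS/5z7, 17.6, 19.2 and 20.6 CPM with LPS and 26.3, 23.0 and 24.7 CPM unstimulated. B6 libraries had 23.8, 24.4 and 25.5 CPM of Egln1 with LPS/5z7, 18.1, 19.0 and 17.6 CPM with LPS and 25.0, 26.6 and 28.3 CPM unstimulated. LPS libraries were the lowest in both genotypes. Egln1 fell with LPS by 0.37 ± 0.08 and 0.54 ± 0.08, and rose with added 5z7 in B6 by 0.43 ± 0.09 (adjusted p = 0.00241), while T169A gave 0.23 ± 0.09 (adjusted p = 0.0842), by edgeR. Egln3, a related hydroxylase, stayed between 0.0592 and 0.592 CPM in all libraries and was not tested.

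Adm encodes the vasodilator peptide adrenomedullin and was almost silent without a stimulus. Its CPM in T169A were 10.2, 14.8 and 17.9 with LPS/5z7, 9.72, 16.3 and 16.7 with LPS and 0.0412, 0 and 0 unstimulated. In B6 they were 8.50, 9.06 and 14 with LPS/5z7, 9.24, 9.81 and 18.7 with LPS and 0.0408, 0.0295 and 0.215 unstimulated. LPS/5z7 and LPS overlapped, and both lay far above unstimulated cells. The unstimulated values rest on 1 count in T169A and 6 counts in B6, so the ratio of LPS to unstimulated levels was 1000 in T169A (exact 95% interval 179 to 39700, counting error only) and 146 in B6 (66.7 to 399). The ratio of LPS/5z7 to LPS was 1.01 (0.916 to 1.12) and 0.906 (0.811 to 1.01). Adm rose with LPS in edgeR's test (adjusted p = 2.04e-09 in T169A and 5.09e-09 in B6) and was not called for added 5z7.

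Ankrd37, an ankyrin repeat gene induced by hypoxia, was low, with 11, 11 and 72 counts in all in the T169A LPS/5z7, LPS and unstimulated groups and 7, 10 and 60 counts in the B6 ones. By library it had 0.227, 0.102 and 0.184 CPM in T169A with LPS/5z7, 0.245, 0.255 and 0.0647 CPM with LPS and 1.07, 0.864 and 0.979 CPM unstimulated. B6 had 0.0905, 0.118 and 0.178 CPM with LPS/5z7, 0.120, 0.197 and 0.155 CPM with LPS and 0.613, 0.650 and 1.24 CPM unstimulated. Every stimulated library lay below every unstimulated one. Ankrd37 fell with LPS by 2.27 ± 0.40 in T169A and 2.31 ± 0.42 in B6, and added 5z7 gave −0.16 ± 0.55 and −0.32 ± 0.61, which did not pass. The mitophagy receptors Bnip3 and Bnip3l fell with LPS by 0.31 ± 0.10 and 0.27 ± 0.09 in T169A and by 0.32 ± 0.10 and 0.31 ± 0.09 in B6. Both T169A calls were lost without library 10 (adjusted p = 0.0712 for Bnip3 and 0.0522 for Bnip3l) or 14 (0.0708 and 0.0856), and the B6 call of Bnip3l without library 8 (0.0669). With the B6 groups alone neither Bnip3 (adjusted p = 0.0976) nor Bnip3l (0.14) was called, and Bnip3 was not called in B6 without a filter on low counts (0.0562). Against unstimulated cells LPS/5z7 gave −0.24 ± 0.10 for Bnip3 in T169A and −0.39 ± 0.10 in B6, both called, and the first was lost without library 10, 13, 15, 16 or 18 (adjusted p of 0.0551 to 0.204).

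Of the 3 alpha-arrestins, 1 rose and 2 fell with LPS and 2 rose with added 5z7, in each genotype, where with LPS 30.3% of all genes rose and 31.5% fell in T169A and 29.6% and 33.5% in B6, and 6.5% and 7.03% rose with added 5z7. Txnip encodes a thioredoxin-binding protein that lowers glucose uptake by GLUT1. T169A macrophages had 147, 163 and 161 CPM of Txnip with LPS/5z7, 68.7, 57.4 and 59.6 CPM with LPS and 307, 364 and 360 CPM unstimulated. In B6 macrophages Txnip had 183, 179 and 180 CPM with LPS/5z7, 88.9, 79.2 and 75.5 CPM with LPS and 302, 302 and 349 CPM unstimulated. No treatments overlapped and LPS/5z7 lay between the other treatments, as for Slc2a1 but with LPS lowest. Txnip fell with LPS by 2.47 ± 0.10 in T169A and 1.97 ± 0.10 in B6, and rose with added 5z7 by 1.34 ± 0.10 in T169A and 1.15 ± 0.10 in B6. The rises had adjusted p of 9.55e-08 and 4.9e-07 in edgeR. It was still 1.13 ± 0.10 below unstimulated cells in T169A and 0.81 ± 0.10 below in B6. The antisense gene Gm15441 overlaps Txnip exons and had 0.0817 to 0.735 CPM, and whether counting used the strand is not given.

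Arrdc3, which encodes an arrestin that sends receptors to ubiquitin ligases, had the deepest fall with LPS of the 32 genes in both genotypes. Arrdc3 had 3.75, 3.43 and 3.92 CPM in T169A with LPS/5z7, 2.53, 2.11 and 2.39 CPM with LPS and 92.3, 92.3 and 93.7 CPM unstimulated. In B6 there were 3.48, 3.02 and 4.82 CPM of Arrdc3 with LPS/5z7, 2.28, 2.05 and 3.03 CPM with LPS and 86.1, 81.5 and 64.5 CPM unstimulated. Unstimulated libraries stood far above all others, and LPS/5z7 overlapped LPS in B6 only. Arrdc3 fell with LPS by 5.29 ± 0.16 in T169A and 5.02 ± 0.16 in B6, and rose with added 5z7 by 0.64 ± 0.18 (adjusted p = 0.0273) in T169A and 0.66 ± 0.18 (adjusted p = 0.0233) in B6, by edgeR. The small rise was not called in T169A without library 11, 12, 14, 17 or 18 (adjusted p of 0.0548 to 0.108) or in B6 without library 2, 5 or 9 (0.0976, 0.144 and 0.157).

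Arrdc4, the closest relative of Txnip, rose. It had 37.3, 41.8 and 44.8 CPM in T169A with LPS/5z7, 37.6, 33.1 and 37.8 CPM with LPS and 16.7, 16.1 and 14.1 CPM unstimulated. B6 cells had Arrdc4 at 39.9, 37.3 and 48.4 CPM with LPS/5z7, 39.4, 41.6 and 35.7 CPM with LPS and 17.6, 18.4 and 17 CPM unstimulated. LPS/5z7 and LPS overlapped, and both were above all unstimulated libraries. Arrdc4 rose with LPS by 1.21 ± 0.11 in T169A and 1.14 ± 0.11 in B6, and added 5z7 gave 0.19 ± 0.11 and 0.10 ± 0.11, which did not pass. Of the CPM per kilobase of the 3 arrestins, Arrdc4 held 16.7% ± 0.719, 30.7% ± 1.56 and 3.03% ± 0.466 in T169A with LPS/5z7, LPS and no stimulus, and 15% ± 1.72, 26.8% ± 1.70 and 3.71% ± 0.341 in B6 (SD, n = 3 each).

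Other genes of the same pathways were read from lists chosen by pathway, also with earlier results of these data known. Over all genes, 30.3% rose and 31.5% fell with LPS in T169A, and 29.6% and 33.5% in B6. With added 5z7, 6.5% of all genes rose and 6.53% fell in T169A, and 7.03% and 6.79% in B6. These shares apply to the counts of every list that follows. Of 14 other glucose transport and glycolysis genes tested, 5 rose and 8 fell with LPS in both genotypes, or 35.7% and 57.1%. Slc2a6, a lysosomal hexose transporter, rose by 3.64 ± 0.14 in T169A and 3.33 ± 0.14 in B6, Slc16a1, the lactate transporter MCT1, by 1.16 ± 0.10 and 1.03 ± 0.10, and Pfkfb2 fell by 1.80 ± 0.21 and 1.59 ± 0.21. With added 5z7, Slc16a1 fell by 0.47 ± 0.10 in T169A and 0.51 ± 0.10 in B6, and Bpgm, which makes 2,3-bisphosphoglycerate, rose by 0.64 ± 0.17 and 0.90 ± 0.18, while 2 of 14 rose and 1 fell in T169A and 1 rose and 1 fell in B6. Slc2a6 gave 0.24 ± 0.13 and 0.15 ± 0.13, which did not pass. The median change with LPS was −0.34 in T169A and −0.31 in B6.

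Of 26 genes of pyruvate entry and the TCA cycle, 11 rose and 3 fell with LPS in T169A, and 7 rose and 4 fell in B6. As shares these are 42.3% and 11.5% in T169A, against 30.3% and 31.5% of all genes. In B6 they are 26.9% and 15.4%, against 29.6% and 33.5%. Dld, the shared dihydrolipoamide dehydrogenase, rose by 0.88 ± 0.08 in T169A and 0.82 ± 0.08 in B6, Pdp1, a pyruvate dehydrogenase phosphatase, fell by 1.16 ± 0.11 and 1.02 ± 0.11, and Pdk2 fell by 1.09 ± 0.13 and 1.22 ± 0.13. Added 5z7 called 1 of the 26 higher in T169A and 0 lower, and 0 either way in B6. In the pentose phosphate list of 8 genes, 1 rose and 1 fell with LPS in T169A and 1 rose and 2 fell in B6, with Rpe, an epimerase, at 0.46 ± 0.08 and 0.49 ± 0.08, H6pd at −0.58 ± 0.13 and −0.39 ± 0.13, and Pgls at −0.06 ± 0.21, not called, in T169A and −0.62 ± 0.21 in B6. None of the 8 was called for added 5z7.

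Of 25 other hypoxia factors and HIF targets tested, 10 rose and 6 fell with LPS in T169A and 9 rose and 6 fell in B6. As shares these are 40% and 24% in T169A, against 30.3% and 31.5% of all genes. In B6 they are 36% and 24%, against 29.6% and 33.5%. Cited2, a feedback inhibitor of HIF, rose by 1.94 ± 0.09 in T169A and 2.03 ± 0.09 in B6, and Ndrg1 by 1.59 ± 0.11 and 1.64 ± 0.11. With added 5z7, 6 of the 25 fell and 1 rose in T169A, and 5 fell and 2 rose in B6. Ndrg1 fell by 0.88 ± 0.11 in T169A and 0.84 ± 0.11 in B6, and Wsb1 by 0.91 ± 0.09 and 0.96 ± 0.09. Wsb1 averaged 111, 210 and 145 CPM in T169A with LPS/5z7, LPS and no stimulus and 112, 217 and 138 CPM in B6, and its LPS/5z7 libraries lay below all unstimulated libraries of the same genotype.

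Among 15 other arrestin, thioredoxin and MondoA or Max network genes tested, 4 rose and 3 fell with LPS in T169A and 5 rose and 4 fell in B6. As shares these are 26.7% and 20% in T169A, against 30.3% and 31.5% of all genes. In B6 they are 33.3% and 26.7%, against 29.6% and 33.5%. Mnt, a MAX-binding repressor, fell by 3.52 ± 0.15 and 3.27 ± 0.15, Mxd4, a relative, fell by 1.48 ± 0.09 and 1.55 ± 0.09, and Mxd1 rose by 2.85 ± 0.17 and 3.05 ± 0.18. With added 5z7, 2 of the 15 fell and 2 rose in each genotype. Mxd1 fell by 1.58 ± 0.16 in T169A and 1.5 ± 0.16 in B6, Myc fell by 1.90 ± 0.26 and 1.70 ± 0.27, and Arrdc2, another alpha-arrestin, rose by 1.02 ± 0.19 and 1.03 ± 0.20. Myc averaged 5.71 ± 2.19, 21.2 ± 6.89 and 21.8 ± 0.560 CPM in T169A and 5.03 ± 1.09, 16.6 ± 3.38 and 23.7 ± 0.858 CPM in B6 (LPS/5z7, LPS and unstimulated, SD, n = 3 each), and was not called between LPS and unstimulated cells.

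Between genotypes none of the 32 genes was called in any treatment by edgeR. The T cell marker sums given above were lower in every T169A library than in any B6 library, and the fibroblast sums overlapped and ranged higher in T169A. Their part in the values between genotypes was not tested. Over all genes 0.214% were called between T169A and B6 unstimulated, 0.222% after LPS and 0.161% with LPS/5z7. At an unadjusted p under 0.05 there were 3 of the 32 unstimulated (Slc2a1, Arrdc3 and Vegfa), 2 after LPS (Txnip and Vegfa) and 5 with LPS/5z7 (Tpi1, Gapdh, Ldha, Pfkp and Vegfa), and DESeq2 called 0, 1 and 0. Of all genes, 694 unstimulated, 729 after LPS and 766 with LPS/5z7 lay under that p. Leaving out Adm and Ankrd37, whose counts were few, the T169A minus B6 differences ran from −0.27 to 0.34 with LPS/5z7, from −0.39 to 0.46 after LPS and from −0.27 to 0.33 unstimulated. The largest SE among these 30 genes was 0.20.

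**Figure D5:**
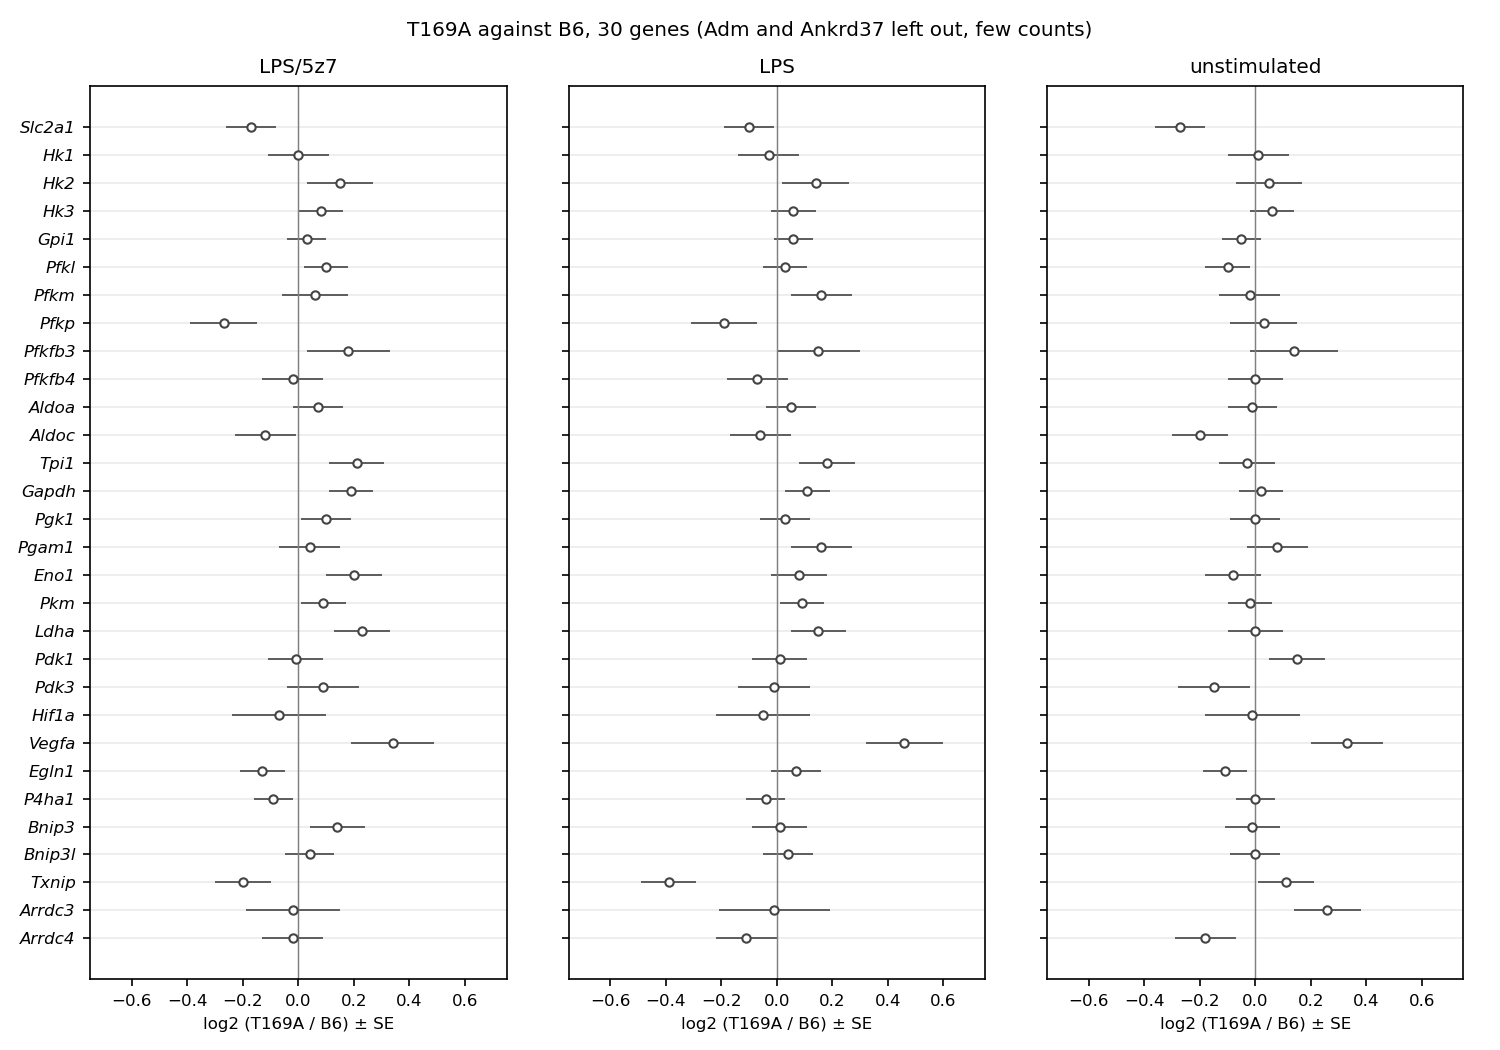
Log2 ratio of T169A over B6 ± SE (edgeR) for 30 genes with LPS/5z7, with LPS and unstimulated. Open circles mark that none was called, Vegfa lies right of 0 in all 3 panels at 0.34, 0.46 and 0.33, and Txnip after LPS lies at −0.39.

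Vegfa was 0.34 ± 0.15 higher in T169A with LPS/5z7, 0.46 ± 0.14 higher after LPS and 0.33 ± 0.13 higher unstimulated, with adjusted p of 0.766, 0.444 and 0.809 in edgeR. Its T169A libraries lay above all B6 libraries with LPS/5z7 and unstimulated and overlapped them after LPS. Txnip after LPS had 68.7, 57.4 and 59.6 CPM in T169A against 88.9, 79.2 and 75.5 CPM in B6, with no overlap, and the difference was −0.39 ± 0.10 (adjusted p = 0.224 in edgeR's test). DESeq2 called it, at −0.41 (adjusted p = 0.0218), and over 13 alternatives the adjusted p ran from 0.0218 to 1. With LPS/5z7 Txnip was also lower in all 3 T169A libraries (−0.20 ± 0.10, adjusted p = 0.766 in edgeR), and unstimulated cells gave 0.11 ± 0.10. How many of all genes separate by genotype in this way was not counted. The lack of overlap for Vegfa and Txnip is therefore description only.

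Tests of the difference between genotypes in a treatment effect called 0% of all genes, and 0 of the 32, in edgeR, for LPS against unstimulated, LPS/5z7 against LPS and LPS/5z7 against unstimulated. At an unadjusted p under 0.05 they held 421, 151 and 461 of all genes and 1, 0 and 1 of the 32, which was Txnip both times, and DESeq2 called 0, 0 and 2 of all genes. The Txnip effect of LPS was −2.47 in T169A and −1.97 in B6, a difference of −0.50 ± 0.14 (adjusted p = 0.916 in edgeR's test), and over 19 alternatives the adjusted p ran from 0.486 to 1. For LPS/5z7 against LPS the differences over 30 genes ran from −0.20 to 0.19, and for Egln1, called in B6 alone, the effects were 0.23 in T169A and 0.43 in B6.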

How the data were processed

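RNA-seq of total RNA from 18 macrophage libraries, made with a directional kit per the labels' protocols, was deposited by the authors as raw read counts per Ensembl gene. Trim Galore, STAR, featureCounts and GRCm39 are named in the submitters' processing notes, with no versions; strand and multiple-mapping settings are not given in the sources used here. Columns carry a group and a running number, so libraries were tied to groups only. Symbols came from GENCODE M21 (GRCm38) for 52029 of 56953 gene IDs, and exon lengths from it are approximate. In it, exons of 13 of the 33 genes overlap a gene on the opposite strand and those of Pfkm, Pkm and Hif1a one on the same strand.

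edgeR 4.0.16 (R 4.3.3) was run on the counts with filterByExpr, TMM scaling, 1 mean for each of 6 groups and robust quasi-likelihood tests, with Benjamini-Hochberg adjustment over 13068 genes and a threshold of 0.05. Standard errors were taken as the size of the log2 change over the square root of F. The tests were also run on counts simulated from the fitted model, with independent libraries. Such counts cannot show how libraries that stand apart affect the calls, and their outcome is not given here. Alternatives were DESeq2 1.42.0 and its size factors, library size alone, other filters, no robust estimation, the compared groups alone and each library left out. At 14645076 to 30425934 counts per library, intervals and 3-count floors cover counting error only. Values by library are given for genes called for LPS/5z7 against LPS in either genotype, or called past 2-fold for LPS against unstimulated in both, and of each other list the 3 called genes with the smallest p in B6 are named for each of these comparisons. Some genes that this rule would name are not reported here. The genes and lists were chosen with earlier results of these data known.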

Additional observations from a re-analysis of the deposited data

How the results depend on the processing

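No paired analysis was possible because the columns carry no replicate letter, so the planned fits with a replicate block were not run. Limits are 3 libraries per group, 1 time point and no dose. Depth limits Egln3, Ankrd37 and unstimulated Adm.

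Scaling mattered most. With library size alone, genes called for LPS against unstimulated were 7 higher and 23 lower in T169A and 7 higher and 22 lower in B6. For LPS/5z7 against LPS 8 were higher in T169A, and for LPS/5z7 against unstimulated 20 were lower in T169A and 23 in B6. The median of all genes moved with it, for LPS against unstimulated to −0.61 in T169A and −0.66 in B6 (TMM −0.03 and −0.07), for LPS/5z7 against LPS to 0.17 and 0.18 (0.02 and 0.02), and for LPS/5z7 against unstimulated to −0.43 and −0.47 (−0.00 and −0.05).

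The values that changed sign there and were called with TMM or with library size alone were, for LPS against unstimulated in T169A, Hk1 −0.21, Hk3 −0.29, Gpi1 −0.47, Pfkm −0.58, Aldoa −0.45, Aldoc −0.53, Tpi1 −0.55, Gapdh −0.39, Pgk1 −0.14, Pgam1 −0.58, Eno1 −0.42, Pkm −0.37, Ldha −0.40, Pdk3 −0.40 and P4ha1 −0.18. In B6 they were Hk1 −0.18, Hk3 −0.29, Aldoa −0.53, Gapdh −0.49, Pgk1 −0.19, Pkm −0.50, Ldha −0.56, Pdk3 −0.55 and P4ha1 −0.15. For LPS/5z7 against unstimulated they were, in T169A, Hk3 −0.31, Gpi1 −0.37, Pfkl −0.23, Aldoa −0.35, Aldoc −0.35, Tpi1 −0.36, Gapdh −0.26, Pgk1 −0.17, Pkm −0.31, Pdk3 −0.01 and P4ha1 −0.31, and in B6 Hk1 −0.16, Hk3 −0.33, Pgk1 −0.27, Pkm −0.42 and P4ha1 −0.22. Hk1 (−0.18), Eno1 (−0.23) and Ldha (−0.22) in T169A and Pdk3 (−0.25) in B6 changed sign there too, called under neither scaling.

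With each library left out, the genes called for LPS against unstimulated were 11 to 13 higher and 7 to 10 lower in T169A, and 11 to 12 higher and 7 to 9 lower in B6. LPS/5z7 against LPS gave 2 to 3 higher and 4 to 7 lower in T169A, and 2 to 4 higher and 4 to 5 lower in B6, the 2 without B6 LPS library 2. For LPS/5z7 against unstimulated they were 7 to 9 higher and 7 to 8 lower in T169A, and 7 to 9 higher and 7 to 10 lower in B6. Slc2a1, Hk2, Pfkfb3, Vegfa and Txnip were called for LPS/5z7 against LPS in each of these fits in both genotypes. Between genotypes DESeq2 called 1 of the 32 after LPS, and the cause was not tested.

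Over all genes, library size alone called 1934 higher and 8106 lower in T169A for LPS against unstimulated (3965 and 4120 with TMM) and 1996 and 8484 in B6 (3868 and 4372). It called, for LPS/5z7 against LPS, 2177 and 530 in T169A (850 and 853) and 2339 and 516 in B6 (919 and 887), and for LPS/5z7 against unstimulated 1975 and 6999 in T169A (3678 and 3591) and 2075 and 7334 in B6 (3610 and 3647). The higher genes for LPS/5z7 against LPS numbered 562 in T169A with those groups alone and 449 to 795 with a library left out, and in B6 591 without a filter and 471 to 605 with a library left out. Between genotypes 28 genes were called unstimulated, 29 after LPS and 21 with LPS/5z7, against 69, 56 and 47 in DESeq2 and 7, 13 and 223 with the groups alone, 39 with LPS/5z7 without a filter, and 22 to 46, 16 to 33 and 15 to 19 with a library left out. DESeq2 called 2 genes for the difference of LPS/5z7 effects against unstimulated, where edgeR called 0.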
